A study of Mus musculus with 8 samples.

Results

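The sarcomere and Z-disc genes are 32 genes for proteins of the contractile apparatus of striated muscle. They were taken by symbol from a fixed list of thick filament, thin filament, titin, M-band and Z-disc genes, and the rule uses no measured value. All 32 were found among the 55487 gene identifiers counted, and all 32 passed the filter on low counts that left 14695 genes for testing. They were measured by RNA-seq in 8 left ventricle libraries from C57BL/6 mice aged 12 weeks. The 4 control libraries have the genotype wild-type and the title NLC, which is kept here as written. The other 4 libraries are labelled GPR116-/- (myocyte-specific), with the title CM-ADGRF5-KO, and are called KO here. GPR116 is another name for ADGRF5, an adhesion G protein-coupled receptor. In both groups replicates 1 and 2 came from males, 3 and 4 from females. The sources used here do not give what drove the deletion in myocytes, which alleles the NLC animals carry, or whether each library is 1 animal. P-values therefore measure the spread between these libraries.

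The sarcomere is the repeating contractile unit of the cardiomyocyte. Thick filaments of myosin pull on thin filaments of actin, and calcium bound by troponin sets when they may do so. Titin spans from the Z-disc, where thin filaments of neighbouring sarcomeres are crosslinked by alpha-actinin, to the M-band, where thick filaments are held in register. The Z-disc also carries LIM and PDZ-LIM adaptor proteins that link the filaments to the membrane and to signalling. Many of these genes are known from inherited cardiomyopathies.

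The libraries held 25.33 to 39.62 M gene reads, and mitochondrially encoded genes took 17.4% to 21.9% of them. Levels are given as CPM, a gene's reads scaled to the library's total after TMM adjustment. The tissue label was checked against 8 cardiomyocyte genes, among them Myh6 at 26529 CPM and Tnni3 at 4826 CPM in NLC, whose sum ran over 61666 to 71575 CPM in NLC and 63372 to 74204 CPM in KO. Of 8 fast skeletal muscle markers Myh4 had no read in any library and the sum was 33.2 to 79.6 CPM in NLC and 34.7 to 49.5 CPM in KO. Most of that sum was Myl1, 23.4 to 69.4 CPM and highest in NLC 4. Of the 6.0 fast skeletal markers tested, 5.0 had a log2 fold change of KO over NLC above 0, with a median of 0.72 over the 6.0, and edgeR called 0.0. Atrial markers differed between libraries. Their sum was 6286 CPM in NLC 4, 1537 CPM in KO 3 and 395 to 909 CPM in the other 6. Of the 909 CPM in KO 1, 864 CPM were Nppa and 0.264 CPM Myl7. Of the 892 CPM in NLC 2, 446 CPM were Nppa and 157 CPM Myl7. The atrial score used below is the mean log2 deviation of the tested atrial markers from their means over the libraries. It was 3.97 in NLC 4, 1.89 in KO 3, 1.51 in NLC 2 and -2.77 in KO 1. Adgrf5 itself stood at 218 to 257 CPM in NLC and 203 to 239.8 CPM in KO. Endothelial cells also transcribe it, so this level is no check of the labels, on which each direction below rests. In such bulk tissue, fewer cells of a type and less RNA per cell cannot be told apart.

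In the comparison of KO with NLC, none of the 32 genes passed the test over all genes. The edgeR quasi-likelihood test with Benjamini-Hochberg adjustment called 0 members at an adjusted p under 0.05, against 15 of 14695 genes (0.102%). At an unadjusted p under 0.05, 6 members were higher in KO, against 5.77% of all genes, and 2 lower, against 6.18%. Together these were 8 of 32 members and 11.9% of all genes. DESeq2 called 1 member, Myot, against 1.02% of all genes, and limma voom called 0, against 0.0885%. The members' log2 fold changes of KO over NLC ran from -0.91 to 0.44. Their median was 0.07, and that of all genes tested was -0.005. A log2 fold change above 0 was found for 22 members and for 49.0% of all genes.

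Promoter sequence is shown for the 3 members with the smallest p among those higher in KO, namely Obsl1, Des and Tnnc1, whose values follow further down. Each line gives the 250 bases before the annotated start, 5′ to 3′ on the gene's strand, from RefSeq with build GRCm38.p6. Obsl1 lies on the minus strand at chr1:75506453-75506702, Des on the plus strand at chr1:75360042-75360291, and Tnnc1 on the plus strand at chr14:31208062-31208311. Capitals mark E-boxes (CANNTG, the letters bound by myogenic and other helix-loop-helix factors) and the MCAT letters CATTCC of TEAD factors, searched on both strands.
Obsl1: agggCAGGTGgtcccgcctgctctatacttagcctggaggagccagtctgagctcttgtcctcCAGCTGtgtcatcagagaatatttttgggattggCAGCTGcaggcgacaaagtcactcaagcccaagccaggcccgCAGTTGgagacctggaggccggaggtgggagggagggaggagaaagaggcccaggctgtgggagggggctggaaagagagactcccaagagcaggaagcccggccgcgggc
Des: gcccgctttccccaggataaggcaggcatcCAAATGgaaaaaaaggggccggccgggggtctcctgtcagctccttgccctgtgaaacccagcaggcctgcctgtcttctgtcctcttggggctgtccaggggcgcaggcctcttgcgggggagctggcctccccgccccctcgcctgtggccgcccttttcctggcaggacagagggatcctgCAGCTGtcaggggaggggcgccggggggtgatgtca
Tnnc1: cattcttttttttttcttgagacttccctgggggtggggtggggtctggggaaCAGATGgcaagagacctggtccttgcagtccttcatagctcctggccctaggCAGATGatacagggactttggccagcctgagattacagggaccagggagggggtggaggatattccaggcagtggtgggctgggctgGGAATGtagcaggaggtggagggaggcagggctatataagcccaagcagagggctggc
The capitals are 4 E-boxes in Obsl1, 2 in Des, and 2 E-boxes and 1 MCAT match on the opposite strand in Tnnc1. None of the 3 windows held a TATAAA, CArG box or MEF2 match. Only the exact letters TATAAA were searched, and the Tnnc1 window holds the similar letters tatataag close to the start.

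RefSeq promoter windows matched 26 of the 32 members, with 38 windows in all because some genes have several starts. An E-box was found in 76.3% of the members' windows and in 66.2% of all 32851 windows of the same length. MCAT letters were found in 21.1% against 12.6%, and TATAAA in 10.5% against 12.4%. The CArG box of serum response factor, searched by its consensus, was found in 18.4% of the members' windows against 1.47%. It occurred in Fhl2, Ldb3, Myl3, Myom1 and Nebl. The MEF2 consensus was found in 18.4% against 2.92%, in Fhl2, Mybpc3, Myom3, Myoz2, Synpo2l and Ttn. Both consensus motifs have a core of A and T letters, and a match describes letters only. Windows that share a gene are not independent, and no test was made.

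**Figure D1:**
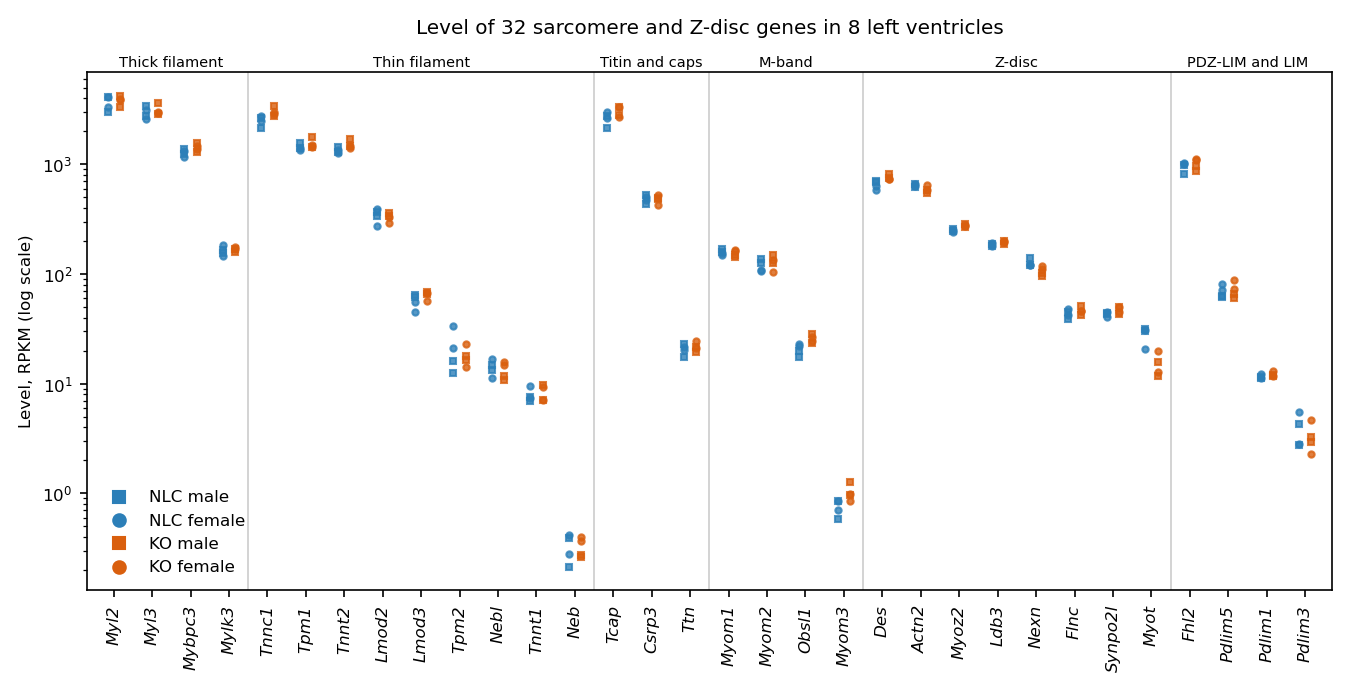
Level of each of the 32 genes in each library, in RPKM on a log scale, grouped by role and ordered by mean level; squares are males, circles females, blue NLC and orange KO. Levels span from Myl2 at 3729.7 RPKM to Neb at 0.325 RPKM, and the spread within a gene is small beside the range between genes.

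Levels of different genes were compared per length, as RPKM, which is CPM divided by the kilobases of all annotated exons of the gene. Ranks were taken among the 14695 genes by mean RPKM over the 8 libraries. On this scale 11 of the 32 genes lay among the 100 highest, and 18 among the 500 highest. Together the 32 genes took 5.68% to 6.62% of all gene reads in NLC and 6.37% to 6.93% in KO. The 11 were Myl2, Myl3, Tcap, Tnnc1, Tpm1, Tnnt2, Mybpc3, Fhl2, Des, Actn2 and Csrp3. At the other end Myom3 ranked 11041 and Neb 13032.

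In the thick filament, Myl2, the regulatory light chain of ventricular myosin, was the most abundant of the 32 genes. Myl2 (chromosome 5, 122100951 to 122113472 of GRCm38, the build of all gene positions here) was measured at 8002, 5904, 7991 and 6439 CPM in NLC 1 to 4 and 8271, 6454, 7646 and 7476 CPM in KO 1 to 4. NLC 2 and 4 and KO 2 were the low libraries, and the groups overlapped. The level was 3633 ± 552 RPKM in NLC and 3827 ± 387 RPKM in KO (SD, n = 4 each), rank 10 overall and 9 to 11 in single libraries. The log2 fold change was 0.08 (edgeR adjusted p = 0.8, SE 0.118), and the 95% interval a change of -12.2% to 26.4%. Myl3, the essential light chain, followed at rank 11, with a log2 fold change of 0.06 (SE 0.101). Per kilobase Myl2 exceeded Myl3 by 1.09 to 1.33 times over the 8 libraries.

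Mybpc3, the cardiac myosin-binding protein C that tunes cross-bridge cycling, was measured at 5742, 5183, 5480.1 and 4861 CPM in NLC 1 to 4 and 6575, 5437, 5706 and 6115 CPM in KO 1 to 4. KO 2 and 3 lay within the NLC range of Mybpc3, and the log2 fold change was 0.16 (edgeR adjusted p = 0.451, SE 0.0849). Mylk3, the cardiac kinase that phosphorylates Myl2, was at 701 ± 69.7 CPM in NLC and 720.0 ± 33.2 CPM in KO (SD, n = 4 each), with a log2 fold change of 0.04 (SE 0.0835). All 4 thick filament genes had a log2 fold change above 0, from 0.04 to 0.16, and none passed, with edgeR adjusted p-values of 0.451 to 0.858.

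Thin filament genes ranged over the widest span of levels. Tnnc1, the calcium-binding troponin C of heart and slow muscle, led them at 2499 ± 265 RPKM in NLC and 3012 ± 274 RPKM in KO (SD, n = 4 each), rank 13. Tnnc1 (chromosome 14, 31208312 to 31211729) was measured at 2742, 2225, 2858 and 2583 CPM in NLC 1 to 4 and 3543, 2891, 3098 and 3009 CPM in KO 1 to 4. Every KO library lay above every NLC library, although KO 2 exceeded NLC 3 by little. For Tnnc1 the log2 fold change was 0.27 (edgeR adjusted p = 0.35, SE 0.0985), with a 95% interval of 3.6% to 40.3%. Tnnc1 passed with no filter on low counts (edgeR adjusted p = 0.0268), where 2.22% of all genes passed. It passed in no other setting of KO against NLC over both sexes. Tnnt2, the cardiac troponin T that anchors the troponin complex to tropomyosin, was measured at 11213, 9953, 9887 and 10418 CPM in NLC 1 to 4 and 13149, 11417, 11029 and 11330.0 CPM in KO 1 to 4. KO 3 lay below NLC 1, and the log2 fold change was 0.18 (edgeR adjusted p = 0.409, SE 0.0768). Tpm1, the main cardiac tropomyosin, stood at 9318 ± 537 CPM in NLC and 9990.3 ± 1109 CPM in KO, with a log2 fold change of 0.10 (SE 0.0835).

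Where a heart gene has a skeletal or minor relative on the list, the heart form was higher per kilobase in every library. Tnnt2 exceeded Tnnt1, the slow skeletal troponin T, by 142 to 207 times. Tpm1 exceeded Tpm2, the beta-tropomyosin of skeletal and smooth muscle, by 40.5 to 113 times. Nebl, the short nebulette of the cardiac Z-disc, exceeded Neb, the giant nebulin of skeletal thin filaments, by 34 to 69.9 times. Lmod2 and Lmod3, leiomodins that lengthen thin filaments at their pointed ends, differed by 4.98 to 6.95 times. Lmod3 made up 12.6% to 16.7% of the leiomodin pair over all libraries. Reads that map to several places were left out of the counts, which can lower genes with close relatives.

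Tpm2 varied more between libraries than the other tropomyosin. Tpm2 (chromosome 4, 43514711 to 43523765) was measured at 46.5, 36.5, 61.2 and 97.8 CPM in NLC 1 to 4 and 47.7, 51.8, 67.0 and 41.0 CPM in KO 1 to 4. NLC 4 was the highest library and NLC 2 the lowest, so the NLC group spanned the KO group. NLC 4 also had the highest sums of atrial markers, 6286 CPM, and of smooth muscle markers, 818 CPM against 455 to 815 CPM in the other 7. The 815 CPM were those of KO 1, with Tpm2 at 47.7 CPM, and the 455 CPM those of NLC 2. For Tpm2 the log2 fold change was -0.15 (edgeR adjusted p = 0.775, SE 0.216), without NLC 4 it was 0.08, and with the atrial score in the model -0.06. The part of smooth muscle in this value was not tested. The remaining thin filament genes did not pass either: Tnnt1 stood at 0.09 (SE 0.134), Lmod2 at -0.06 (SE 0.107), Lmod3 at 0.18 (SE 0.09), Neb at -0.02 (SE 0.187) and Nebl at -0.10 (SE 0.135) on the log2 scale. Nebl spans 388 kb and was highest in NLC 4 and KO 4, at 257 and 241 CPM.

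Titin and 2 partners made up the next group. Ttn, the giant elastic protein that sets passive stiffness, was measured at 2701, 2036, 2511 and 2393 CPM in NLC 1 to 4 and 2272, 2525, 2493 and 2867 CPM in KO 1 to 4. NLC 2 was the lowest library, KO 4 the highest, and the groups overlapped. Ttn ranked 32 by CPM but 1645 by RPKM, because its exons add up to 116825 bases. For Ttn the log2 fold change was 0.07 (edgeR adjusted p = 0.761, SE 0.0988).

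Tcap, the small cap that binds the titin end in the Z-disc, was measured at 2602, 2044, 2518 and 2829 CPM in NLC 1 to 4 and 2660.1, 3135, 2542 and 3131 CPM in KO 1 to 4. KO 2 and 4 were above all NLC libraries while KO 1 and 3 were within their range. Its level was 2635 ± 348 RPKM in NLC and 3024 ± 328 RPKM in KO (SD, n = 4 each), rank 12, and the log2 fold change was 0.20 (edgeR adjusted p = 0.472, SE 0.111). Csrp3, the muscle LIM protein, stood at 1295 ± 100.5 CPM in NLC and 1285 ± 104 CPM in KO with a log2 fold change of -0.01 (SE 0.0871), the smallest difference among the 32 genes.

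In the M-band, where myomesins crosslink thick filaments, Myom1 and Myom2 stood at like levels and Myom3 was rare. Myom1 was measured at 1659, 1755, 1573 and 1624 CPM in NLC 1 to 4 and 1491, 1569.7, 1711 and 1741 CPM in KO 1 to 4, with a log2 fold change of -0.02 (edgeR adjusted p = 0.909, SE 0.0763). Myom2 stood at 1051 ± 127 CPM in NLC and 1132 ± 161 CPM in KO, with a log2 fold change of 0.11 (SE 0.0924), and the ratio of Myom1 to Myom2 per kilobase was 0.964 to 1.57. Myom3 (chromosome 4, 135759715 to 135815564) was measured at 5.17, 3.51, 4.28 and 5.12 CPM in NLC 1 to 4 and 5.82, 7.64, 5.97 and 5.19 CPM in KO 1 to 4. KO 4, the lowest KO library, lay just above NLC 1, so the groups met without overlap. For Myom3 the log2 fold change was 0.44 (edgeR adjusted p = 0.36, SE 0.168), and Myom3 made up 0.191% to 0.456% of the myomesin reads per kilobase.

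Obsl1, an obscurin-like protein of the M-band, had the smallest p among members higher in KO. Obsl1 (chromosome 1, 75479310 to 75506452) was measured at 168, 149, 188 and 195 CPM in NLC 1 to 4 and 239, 200.1, 206 and 226 CPM in KO 1 to 4. KO 1 and 4 were the highest libraries, and KO 2 lay close above NLC 4. Its mean level was 175 ± 21.1 CPM in NLC and 218 ± 17.9 CPM in KO (SD, n = 4 each), and the log2 fold change was 0.32 (edgeR adjusted p = 0.266, SE 0.0915), with a 95% interval of 8.77% to 44.2%. Obsl1 passed with no filter on low counts (adjusted p = 0.0122), where 2.22% of all genes passed, and in no other setting of KO against NLC over both sexes. DESeq2 gave it an adjusted p of 0.063.

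Myot showed the largest difference of the 32 genes. It encodes myotilin, a Z-disc protein that binds alpha-actinin and filamin and bundles actin. Myot (chromosome 18, 44334074 to 44355724) was measured at 66.3, 69.0, 67.7 and 46.0 CPM in NLC 1 to 4 and 26.2, 34.7, 43.5 and 28.0 CPM in KO 1 to 4. NLC 1, 2 and 3 lay together, while NLC 4 was nearer to KO 3 than to the other NLC libraries. Means were 62.2 ± 10.9 CPM in NLC and 33.1 ± 7.85 CPM in KO (SD, n = 4 each). For Myot the log2 fold change was -0.91 (edgeR adjusted p = 0.129, SE 0.176), and its 95% interval was a change of -59.4% to -30.3%.

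Myot passed in DESeq2 (DESeq2 adjusted p = 4.44e-05), where 1.02% of all genes passed, and without NLC 4. It also passed with no filter on low counts (edgeR adjusted p = 3.82e-20), where 2.22% of all genes passed. In that unfiltered fit the edgeR prior degrees of freedom were infinite and the SE was 0.0913, against 0.176 with the filter. That p-value therefore does not rest on the spread of Myot itself. Without NLC 4 its log2 fold change was -1.06 (edgeR adjusted p = 0.0345), in a fit that called 0.135% of all genes. It also passed with NLC 3 and 4 both left out, at -1.16 (edgeR adjusted p = 0.0483), where 0.293% of all genes passed. Leaving out any 1 of the other 7 libraries gave -1.10 to -0.78 with adjusted p-values of 0.0609 to 0.409. With the atrial score added to the model the value was -0.91 (adjusted p = 0.0803). Myotilin is also made in skeletal muscle. Among the fast skeletal markers Myh4 had no read and Actn3 at most 0.291 CPM, while others were detected at low levels. Atp2a1, the calcium pump of fast muscle, stood at 2.61 ± 1.67 CPM in NLC and 5.94 ± 1.28 CPM in KO (SD, n = 4 each), a log2 fold change of 1.21 (edgeR adjusted p = 0.213). The log2 fold changes were 0.81 for Tnni2, 0.73 for Tnnt3, 0.71 for Mylpf, 0.18 for Pvalb and -0.71 for Myl1, and none passed by edgeR. The part of skeletal muscle in the Myot value was not tested. No annotated gene overlapped Myot on either strand.

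**Figure D2:**
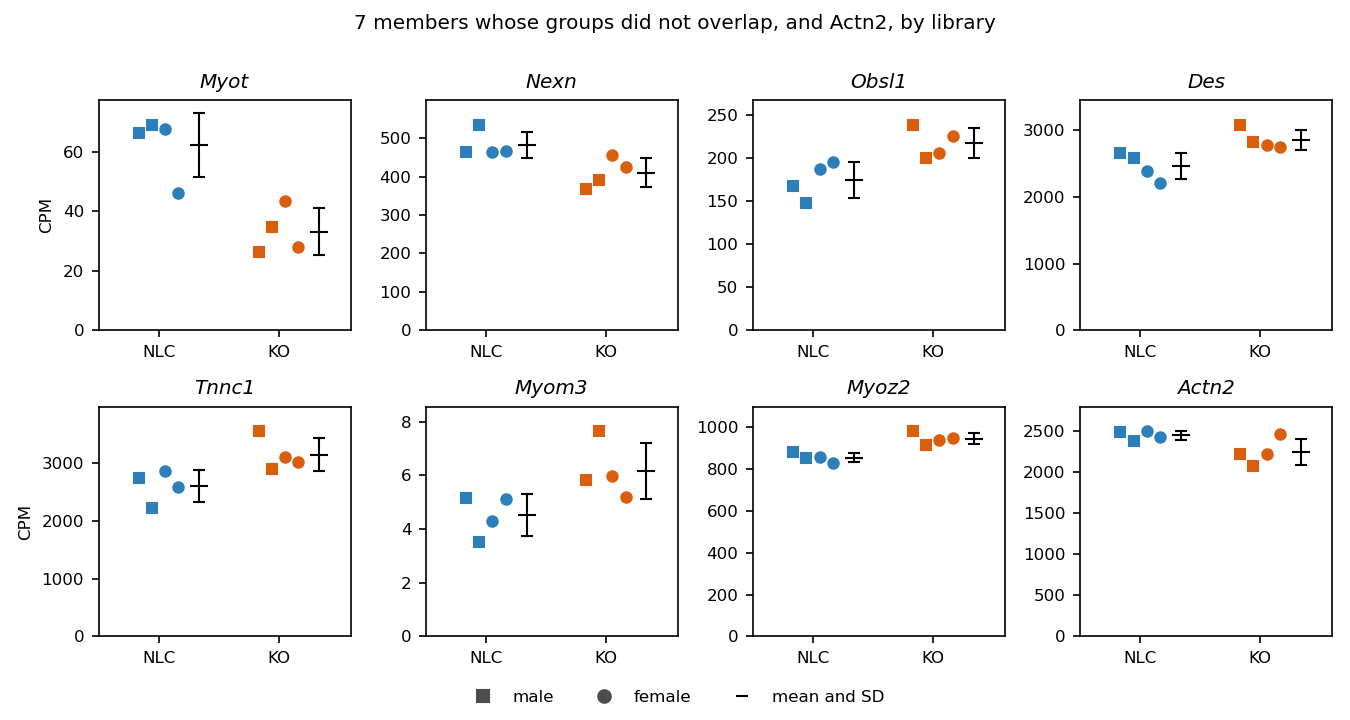
Level in CPM by library for the 7 members whose KO and NLC libraries did not overlap and for Actn2, each on its own linear axis from 0; squares are males, circles females, and black marks the mean with SD (n = 4). KO lies below NLC for Myot and Nexn and above it for Obsl1, Des, Tnnc1, Myom3 and Myoz2, with narrow gaps between the groups in most panels.

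Nexn, an actin-binding protein that holds Z-discs together, was the other member whose KO libraries all lay lower. Nexn (chromosome 3, 152236982 to 152266350) was measured at 464, 535, 465 and 466 CPM in NLC 1 to 4 and 369, 393, 456 and 425 CPM in KO 1 to 4. NLC 2 stood above the other 3 NLC libraries, which lay close together, and KO 3 came near them. For Nexn the log2 fold change was -0.24 (edgeR adjusted p = 0.35, SE 0.0861), and -0.17 without NLC 2 (adjusted p = 0.695). The transcript model Gm43185 shares 7.5% of the Nexn exon bases on the same strand.

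Des encodes desmin, the intermediate filament that ties neighbouring Z-discs together. Des (chromosome 1, 75360329 to 75368579) was measured at 2657, 2589, 2392 and 2215 CPM in NLC 1 to 4 and 3079.9, 2832, 2787 and 2744 CPM in KO 1 to 4. Every KO library lay above every NLC library, the closest being KO 4 and NLC 1. Its level was 656 ± 53.3 RPKM in NLC and 762 ± 40.1 RPKM in KO (SD, n = 4 each), rank 49, and the log2 fold change was 0.22 (edgeR adjusted p = 0.309, SE 0.0682), with a 95% interval of 4.73% to 29.2%. Myoz2, the calsarcin that restrains calcineurin at the Z-disc, was measured at 879.7, 851, 857 and 828 CPM in NLC 1 to 4 and 979.7, 915, 937 and 948 CPM in KO 1 to 4. The SD was 2.5% of the mean in NLC and 2.85% in KO, and the groups did not overlap. For Myoz2 the log2 fold change was 0.15 (edgeR adjusted p = 0.409, SE 0.0635).

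Actn2, the alpha-actinin that crosslinks thin filaments in the Z-disc, was measured at 2488, 2377, 2497 and 2425 CPM in NLC 1 to 4 and 2225, 2080.2, 2221 and 2468 CPM in KO 1 to 4. KO 1, 2 and 3 lay below all NLC libraries and KO 4 lay among them. For Actn2 the log2 fold change was -0.12 (edgeR adjusted p = 0.483, SE 0.0703). The other Z-disc genes stood above 0: Ldb3 (the PDZ-LIM protein cypher) at 0.08 (SE 0.0651), Flnc (filamin C) at 0.10 (SE 0.086) and Synpo2l, an actin-associated protein, at 0.12 (SE 0.0741) on the log2 scale. None passed, with edgeR adjusted p-values of 0.512 to 0.643.

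Of the LIM adaptors, Fhl2, which docks metabolic enzymes and signalling proteins on titin, led with rank 37. Fhl2 was measured at 1891, 1566, 1946 and 1920.0 CPM in NLC 1 to 4 and 1841, 1654, 2082 and 2117 CPM in KO 1 to 4, with overlapping groups and a log2 fold change of 0.07 (SE 0.0798). Pdlim5, the PDZ-LIM protein ENH, stood at 618 ± 78.4 CPM in NLC and 636 ± 109 CPM in KO, Pdlim1 at 61.0 ± 2.83 CPM in NLC and 63.8 ± 3.51 CPM in KO and Pdlim3 (ALP) at 19.8 ± 6.82 CPM in NLC and 17.0 ± 5.19 CPM in KO (SD, n = 4 each). Their log2 fold changes were 0.04 (SE 0.0835), 0.06 (SE 0.0637) and -0.22 (SE 0.25). Pdlim3 was highest in NLC 4 and KO 3, at 28.5 and 24.1 CPM, the 2 libraries with the highest atrial sums. NLC 2 came near KO 3 in the atrial gene Myl7, at 157 against 183 CPM. Pdlim3 in NLC 2 was only 14.3 CPM, beside 14.5 CPM in NLC 3, where Myl7 was 0.371 CPM. The log2 fold change of Pdlim3 without NLC 4 was 0.0049 and, once the atrial score was in the model, -0.03.

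Across the list, the groups of 4 libraries did not overlap for 7 members, against 6.25% of all genes. KO lay above NLC for Tnnc1, Myom3, Obsl1, Myoz2 and Des, 5 of 32, against 3.22%. KO lay below for Myot and Nexn, 2 of 32, against 3.03%. By role, the median log2 fold change was 0.07 in the thick filament, 0.09 in the thin filament, 0.07 for titin and its partners, 0.22 in the M-band, 0.09 in the Z-disc and 0.05 for the LIM adaptors. Myot alone differed by more than 0.5 on the log2 scale. In simulated data on the 14695 genes, 200 genes with a mean of at least 1 CPM were changed. The same test recovered 60.6% of genes changed 1.5-fold and 90.7% of those changed 2-fold. The simulated counts carried no differences that a library shares over many genes, so these shares may be too high for the data here. The adjusted threshold is also easier to pass when many genes are changed. Each simulated data set held 200 changed genes, whereas the test called 15 genes in the data. The differences of the other 31 members were all below 1.5-fold.

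**Figure D3:**
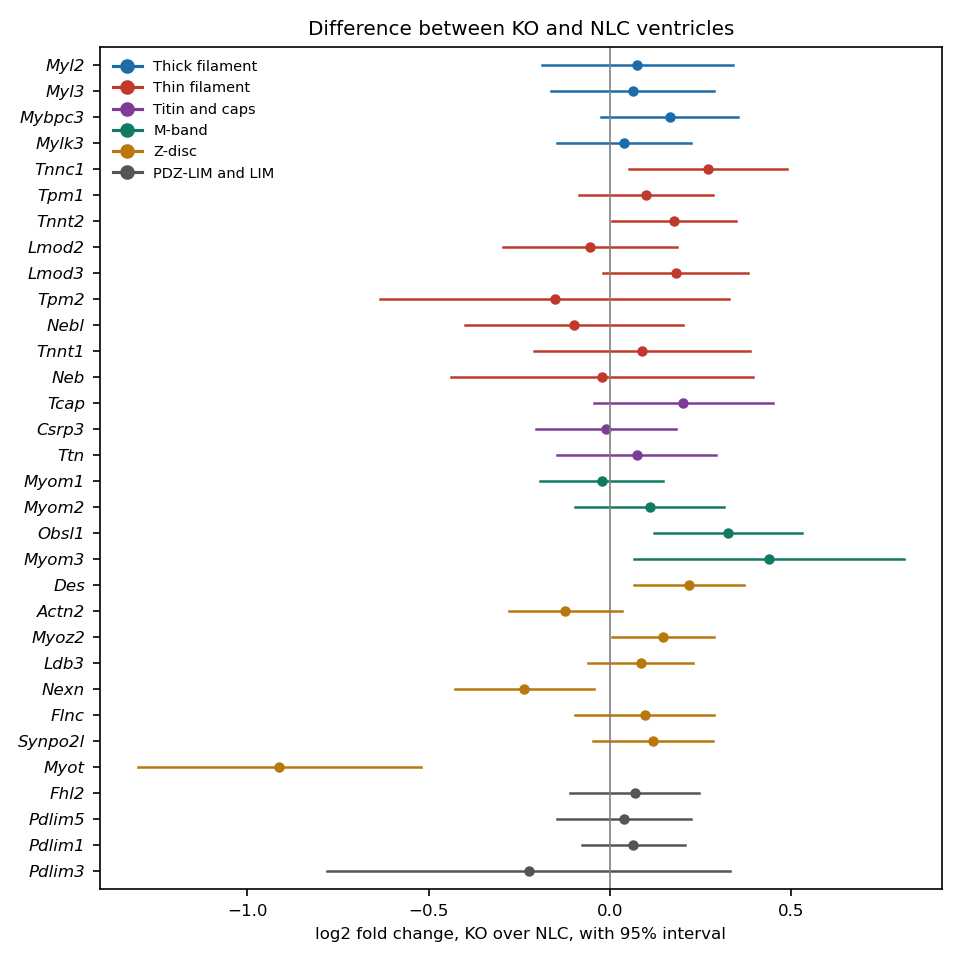
Log2 fold change of KO over NLC for each of the 32 genes, with its 95% interval from the edgeR fit, coloured by role. Points lie between -0.91 for Myot and 0.44 for Myom3, and most intervals cross 0; the intervals are not adjusted for the number of genes.

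Other genes of the sarcomere and its upkeep, 41 in all, were set beside the members. Of the 39 that passed the filter 20 had a log2 fold change above 0, with a median of 0.0055, and edgeR called 0. At an unadjusted p under 0.05, 2 were higher and 6 lower, and the groups of 1, Capza2, did not overlap. Per kilobase the most abundant were Actc1, cardiac actin, with a log2 fold change of 0.08 (SE 0.0774), and Myh6, the alpha-myosin heavy chain, with 0.13 (SE 0.113). The smallest p belonged to Myh7, the beta-myosin heavy chain, at 167 ± 62.7 CPM in NLC and 252 ± 51.2 CPM in KO, with a log2 fold change of 0.64 (edgeR adjusted p = 0.246, SE 0.176). Tpm4, a cytoskeletal tropomyosin, came next at -0.21 (SE 0.0744). The lowest values, -3.32 to -3.03 on the log2 scale, were those of the atrial genes Myl7, Myl4 and Mybphl, and Myl7 stood at 983 CPM in NLC 4 and 0.264 CPM in KO 1.

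KO and NLC were then compared within each sex, with 2 libraries per group and a spread shared over all 8. Within males edgeR called 0 members, against 0.0408% of all genes, with 3 higher and 2 lower at an unadjusted p under 0.05 (17.5% of all genes). DESeq2 called 3, Obsl1, Myot and Nexn, against 2.14% of all genes. Within females edgeR called 0 members (0% of all genes), with 2 higher and 1 lower at an unadjusted p under 0.05 (5.12% of all genes), and DESeq2 called 0 (0.116% of all genes). Myot was lower in both sexes, from 67.6 to 30.4 CPM in males (-1.15, SE 0.234, edgeR adjusted p = 0.15) and from 56.8 to 35.8 CPM in females (-0.67, SE 0.232, edgeR adjusted p = 0.969). Without NLC 3 or without NLC 4 the male edgeR count was 1, namely Myot, with 0.256% and 0.397% of all genes called. With no filter on low counts the count was 5 in males (3.6% of all genes) and 2 in females (0.991%).

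Obsl1 stood at 0.47 (SE 0.114) in males and 0.18 (SE 0.114) in females, and Nexn at -0.39 and -0.08. Des stood at 0.17 in males and 0.26 in females. A direct test of the KO effect in males against females called 0 members by edgeR and 0 by DESeq2, with 0% and 0.102% of all genes called. With no filter on low counts it called 1, Tpm2, and 0.869% of all genes. At an unadjusted p under 0.05 it held 1 member, Tpm2, against 7.46% of all genes. Tpm2 stood at 0.26 in males and -0.56 in females, a difference of 0.82 (SE 0.361, edgeR adjusted p = 0.648). For Nexn the difference was -0.31 (SE 0.143, edgeR adjusted p = 0.648). NLC 4, the library highest in Tpm2, is 1 of the 2 NLC females.

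**Figure D4:**
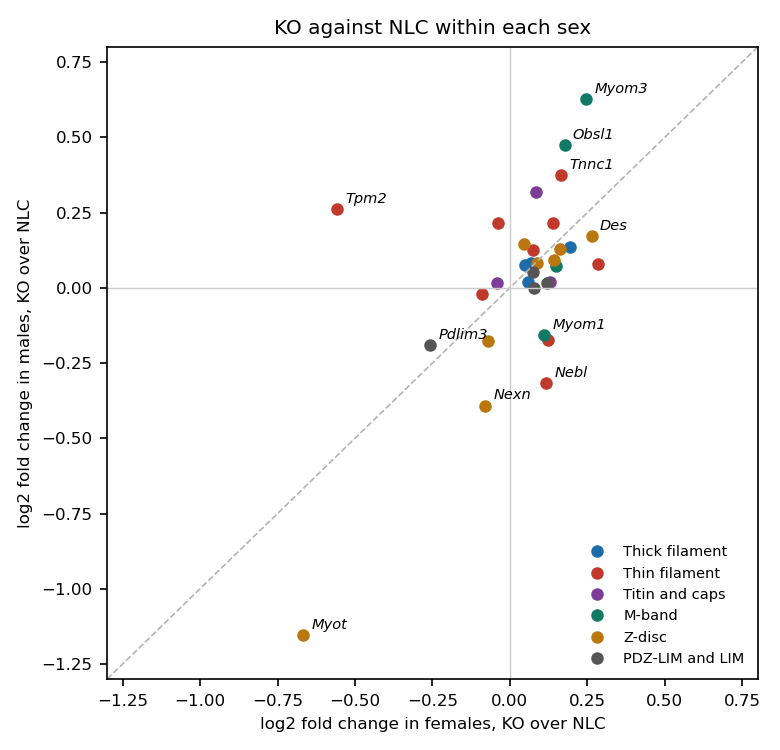
Log2 fold change of KO over NLC in males against that in females for the 32 genes, coloured by role, with the line of equal change dashed; each value rests on 2 libraries per group. Myot is low on both axes, Tpm2 lies in opposite directions, and most genes lie near 0 on both.

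Over both genotypes, edgeR called 0 members between males and females, against 0.299% of all genes. At an unadjusted p under 0.05 there were 5, against 12.8% of all genes, and DESeq2 called 1, Pdlim5, against 1.47%. With no filter the count was 2, Tpm2 and Pdlim5, against 2.65%. Pdlim5 was measured at 552, 565, 632 and 723 CPM in NLC 1 to 4 and 535, 581, 784 and 646 CPM in KO 1 to 4. The 4 females lay above the 4 males, by -0.32 for male minus female on the log2 scale (SE 0.0835, edgeR adjusted p = 0.194). The share of all genes whose males and females do not overlap was not counted. The females include NLC 4 and KO 3, the libraries with the highest atrial sums. They also include NLC 3 and KO 4, with low atrial sums of 407 and 395 CPM and Pdlim5 at 632 and 646 CPM. The part of atrial cells in this value was not tested. The other 4 were Tpm2 at -0.53, Fhl2 at -0.21, Lmod3 at 0.21 and Myom2 at 0.25.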

How the data were processed

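Left ventricle RNA, isolated with a column kit, went into 8 stranded mRNA libraries, per the labels' protocols. The authors deposited 1 file per library of raw counts, for 55487 Ensembl gene identifiers and 5 summary entries. STAR, HTSeq and DESeq2 and build GRCm38 are named per the submitters' processing notes, with no version, and the strand setting of the counting is not stated. Summary entries were left out. Their shares of reads were 16.8% to 20.3% for several map positions, 3.06% to 4.08% for no gene and 1.26% to 1.38% for ambiguous genes. Without the strand setting, reads of opposite-strand genes may not be separated, and such genes share up to 5.86% of a member's exon bases (Des), 4.65% in Myl3 and 3.08% in Myl2.

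Symbols, positions and exon lengths came from GENCODE M21. The counts were fitted with edgeR 4.0.16 under R 4.3.3: filterByExpr by genotype, TMM scaling, and a quasi-likelihood test with sex as an additive term, or with a mean for each group of each sex. P-values were adjusted over all 14695 genes with a threshold of 0.05. DESeq2 1.42.0 and limma 3.58.1 (voom) were alternatives, with other scalings, filters and covariates, a replicate block, and each library left out in turn. The test was checked on 5 simulated data sets of 200 changed genes, where false calls were 7.53% of calls. The members and lists were chosen with earlier results of these data known. Described in full were called members, the 3 smallest p per direction, the most abundant of each role, members whose groups did not overlap and the 2 smallest p for the sex difference. A count of 0 would leave room for 0.0793 to 0.122 CPM (3 counts per library, counting error only).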

Additional observations from a re-analysis of the deposited data

Results flagged for a closer look

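In a group of 4 libraries, a library stood apart when its gap to the nearest other library took a share of the group's range above Dixon's 95% critical value. This was looked at in 64 groups, 2 for each member, and 5 were marked, where chance marks about 1 in 20. Myot was low in NLC 4, at 46.0 CPM against 66.3 to 69.0 CPM (gap share 0.884), and NLC 4 also had the highest atrial sum. KO 3, next in the atrial sum at 1537 CPM, had the highest Myot of the KO libraries, 43.5 CPM. Nexn was high in NLC 2, at 535 CPM against 464 to 466 CPM (0.966). Fhl2 was low in NLC 2, at 1566 CPM against 1891 to 1946 CPM (0.855). Myl3 was high in KO 1, at 7405 CPM against 5913 to 6084 CPM (0.885). Pdlim1 was high in KO 3, at 69.0 CPM against 61.6 to 62.6 CPM (0.872). KO 1 was also the deepest library, with 39.62 M gene reads against 26.59 to 28.81 M in the other KO libraries (0.83).

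Of the 32 members only Myom1 separated in opposite directions in the sexes, with 2 libraries per group. The share of all genes that do so was not counted, so this is no more than a description. In males KO was lower, at 1491 and 1569.7 CPM against 1659 and 1755 CPM in NLC. In females KO was higher, at 1711 and 1741 CPM against 1573 and 1624 CPM. The difference of the log2 fold changes, male minus female, was -0.27 (SE 0.124) and did not pass over all genes (edgeR adjusted p = 0.648).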

How the results depend on the processing

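The number of members called for KO against NLC was 0 in 17 of 21 alternatives. It was 1 by DESeq2 (150 of all genes called, against 15), 1 without NLC replicates 3 and 4 together, a setting added after seeing the data, and 3 with no low count filter (621 of all genes called). Over all genes edgeR called 0 without NLC 1, NLC 2, KO 2 or KO 3, 4 without KO 1 or KO 4, 20 without NLC 4, 50 without NLC 3, 31 with the atrial score, 6 without the sex term and 30 at a threshold of 0.1. With no filter the edgeR prior degrees of freedom were infinite, against 5.216 with the filter. Within males the count was 3 by DESeq2 and 5 with no filter. With no filter it was 2 within females and 1 for the difference between the sexes. For male against female it was 1 by DESeq2 and 2 with no filter. Leaving out 1 library gave 0 to 1 for KO against NLC (Myot without NLC 4), 0 to 1 within males (Myot without NLC 3 or NLC 4) and 0 to 0 otherwise. Among the 100 highest genes there were 11 members, and 15 by CPM. The log2 fold changes of 20 members kept their sign in all 21 alternatives, 17 of them above 0. Those of 12 turned in some. Leaving out 1 library gave the ranges Myl2 -0.011 to 0.17, Myl3 -0.0097 to 0.12, Mylk3 -0.028 to 0.10, Tnnt1 -0.034 to 0.19, Tpm2 -0.31 to 0.079, Neb -0.16 to 0.20, Lmod2 -0.14 to 0.063, Csrp3 -0.070 to 0.048, Myom1 -0.060 to 0.018, Pdlim3 -0.45 to 0.0049, Pdlim5 -0.028 to 0.084. Neb was also 0.027 by voom, 0.015 with the replicate block and 0.056 with the atrial score. With that score Nebl was 0.032 and Myom1 9e-04. Without NLC replicates 3 and 4, Tpm2 was 0.26, Csrp3 0.016 and Pdlim5 -0.003. Same-numbered libraries correlated at 0.25, 0.09, -0.21 and 0.09 in their deviations from group means. The highest value was 0.50, for NLC 4 with KO 3. These deviations also hold the difference between the sexes, so they cannot decide whether replicate numbers pair the libraries. With the numbers as a replicate block 0 members and 0 of all genes passed. With 4 libraries a group the simulation recovered 60.6% of 1.5-fold changes, and smaller ones such as those of 31 members were not simulated. It held 200 changed genes per data set, whereas 15 were called in the data, so this share may be too high here.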

Other observations

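Des and Obsl1, both higher in KO without overlap, lie 111 kb apart on chromosome 1 of GRCm38. This was seen after their values were known. Of the 5 other tested genes between or overlapping them, Speg, a kinase of striated muscle, stood at 0.12 (SE 0.0856) on the log2 scale and 301 ± 17.7 CPM in NLC and 327 ± 32.7 CPM in KO (SD, n = 4 each). Chpf, a chondroitin synthase subunit, stood at 0.18 (SE 0.0827) and Gmppa, which regulates GDP-mannose synthesis, at 0.03 (SE 0.0829). The antisense gene Gm15179 (0.846 CPM in NLC) and Tmem198 (0.809 CPM) were low, at -0.03 (SE 0.427) and 0.20 (SE 0.214). None of the 7 genes passed by edgeR, with adjusted p-values of 0.266 to 0.979, and only Des and Obsl1 had an unadjusted p under 0.05. Groups overlapped for the 5 genes that are not members.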
